A study of Neurospora crassa with 11 samples.

Results

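The 4 genes described here encode 3 beta-glucosidases and 1 cellobiose dehydrogenase of the filamentous fungus Neurospora crassa, and they were taken by locus name from the 9758 genes of the count tables. They are gh3-4 (NCU04952), gh3-3 (NCU08755), gh1-1 (NCU00130) and cdh-1 (NCU00206). Transcripts were measured by RNA-seq of total RNA in 11 libraries. Mycelium was first grown in Vogel's medium, a defined salt medium, on sucrose for 16 h. It was then washed and put into the same medium, fresh, holding xylan, holding sucrose or lacking carbon. Xylan, a polymer of xylose, is a major hemicellulose of plant cell walls. XLR-1 is the fungus's transcriptional activator of xylan-degrading genes, and the study asked what XLR-1 and the related regulators CLR-1 and CLR-2 do in plant cell wall degradation.

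All strains are given in the labels as FGSC2489, the OR74A laboratory wild type, or as derived from it. The A828V strain carries an xlr-1 allele with that amino acid change under the ccg-1 promoter, inserted at his-3, and its own xlr-1 is replaced by a hygromycin resistance cassette (HygR). The ccg-1 promoter is that of a clock-controlled gene, so the allele was not read from its native promoter. This strain was sequenced without carbon (3 libraries) and on sucrose (1 library). The deletion strain carries the same replacement of xlr-1 and no A828V allele, and was sequenced on xylan (4 libraries). The wild type was also sequenced on xylan (3 libraries). A wild type without carbon appears as a group mean in 2 comparison tables that the authors deposited.

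Beta-glucosidases cut cellobiose and longer cellodextrins, the short chains that cellulases release from cellulose, to glucose. In N. crassa, gh3-4 encodes a secreted beta-glucosidase, gh3-3 one that stays with the cell wall and gh1-1 one inside the cell, where it acts on cellodextrins brought in by the transporters CDT-1 and CDT-2. Cellobiose dehydrogenase is secreted, oxidises cellobiose to its lactone, which gives cellobionic acid, and passes electrons to the lytic polysaccharide monooxygenases that cut cellulose oxidatively.

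The gene gh3-4 lies on chromosome IV (846341 to 849048), and the other 3 lie on chromosome III, gh3-3 at 5254966 to 5258478, gh1-1 at 2730966 to 2733380 and cdh-1 at 3004156 to 3008108, in coordinates of the deposited tables, which equal those of RefSeq assembly NC12 for 4 of the 4 genes. None of the 4 overlaps an annotated neighbour, and the gaps to the neighbours run from 422 to 3289 bases.

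Gene counts came to 10317390 to 18927605 a library. xlr-1 was checked first, at 11.8, 9.79, 3.28 and 5.62 CPM (read counts scaled to library size with TMM factors) in deletion libraries 1 to 4, against 136, 158 and 112 CPM in the wild-type libraries on xylan. Each deletion library thus lay below each wild-type library. The edgeR quasi-likelihood test gave a log2 fold change of -4.15 with an SE of 0.39 and an adjusted p = 0.000342 (Benjamini-Hochberg over 8557 genes). In the A828V libraries xlr-1 stood at 109, 129 and 115 CPM without carbon and at 199 CPM on sucrose, a log2 fold change of -0.76. The mating type A gene matA-1 was read 143, 130 and 107 times in the A828V libraries without carbon and 12 times on sucrose, although the label of that strain gives mating type a. It had 0 counts in each deletion library, against 125, 93 and 91 counts in wild type on xylan. The 4 conidiation genes con-6, con-10, eas and fl, markers of the asexual spore programme, took 2.1% to 2.44% of the gene counts in the A828V libraries without carbon and 0.0416% on sucrose. They took 0.0305% to 0.194% in the deletion libraries, against 0.0157% to 0.198% in wild type on xylan. In A828V without carbon most of the share was eas, at a mean of 18071 CPM, beside 1185 for con-6, 128 for fl and 47 for con-10. These genes move with the comparisons of A828V without carbon against the sucrose and xylan libraries, and their part in the results was not tested. RNA came from whole mycelium, so fewer cells that express a gene and less RNA per cell cannot be told apart.

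The secreted enzyme's gene, gh3-4, stood at 106, 105 and 161 CPM in the A828V libraries without carbon. It stood at 0.791 CPM (9 counts, exact 95% binomial interval 0.362 to 1.5 CPM, counting error only) in the A828V library on sucrose. It stood at 3.06, 3.26, 5.07 and 9.89 CPM in the deletion libraries, against 7.7, 8.2 and 3.22 CPM in wild type on xylan. The A828V libraries without carbon lay above all 8 others, the sucrose library lay below all others, and the deletion and wild-type libraries overlapped. The mean level per length was 51.9 ± 14.2 FPKM (fragments scaled to gene length and library size by the authors, SD, n = 3) without carbon, which put gh3-4 above 82.2% of the 9758 genes. It was 0.227 FPKM on sucrose (above 13.4% of genes), 1.79 ± 0.798 FPKM in the deletion strain (SD, n = 4) and 2.09 ± 0.95 FPKM in wild type on xylan (SD, n = 3).

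The gene of the cell wall enzyme, gh3-3, stood at 159, 172 and 199 CPM in the A828V libraries without carbon and at 5.19 CPM (59 counts, interval 3.95 to 6.69 CPM) on sucrose. It stood at 1545, 217, 427 and 343 CPM in deletion libraries 1 to 4, against 1345, 332 and 277 CPM in wild-type libraries 1 to 3. On xylan the library numbered 1 of each strain stood far above the rest of its group, at 4.7 times the mean of the other deletion libraries and 4.42 times the mean of the other wild-type libraries. The xylan groups overlapped, the A828V libraries without carbon lay below all 7 xylan libraries, and the sucrose library lay lowest. In FPKM the means were 63.8 ± 7 without carbon (SD, n = 3), 1.28 on sucrose, 199 ± 206 in the deletion strain (SD, n = 4) and 184 ± 168 in wild type on xylan (SD, n = 3).

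The intracellular enzyme's gene, gh1-1, was the steadiest of the 4 within the A828V strain without carbon, at 103, 102 and 98.5 CPM. It stood at 36 CPM (410 counts, interval 32.6 to 39.7 CPM) on sucrose. It stood at 180, 150, 141 and 122 CPM in the deletion libraries, against 538, 292 and 189 CPM in wild type on xylan. The order was wild type on xylan, deletion on xylan, A828V without carbon and A828V on sucrose, and no neighbouring groups in it overlapped in CPM. In FPKM the wild-type libraries (87.6 to 238) overlapped with the deletion ones (48 to 96.1), and the A828V libraries without carbon (60.2 to 65.1) lay within the deletion range. In FPKM the means were 62.2 ± 2.62 without carbon (SD, n = 3), 13.9 on sucrose, 75.1 ± 20.6 in the deletion strain (SD, n = 4) and 159 ± 75.3 in wild type on xylan (SD, n = 3).

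The cellobiose dehydrogenase gene, cdh-1, was the lowest of the 4 in mean FPKM in 2 of the 4 groups (wild type on xylan and the A828V strain without carbon), and gh3-4 was the lowest in the other two. It stood at 8.18, 10.7 and 8.51 CPM in the A828V libraries without carbon and at 6.42 CPM (73 counts, interval 5.03 to 8.07 CPM) on sucrose. It stood at 9.03, 4.53, 5.89 and 5.04 CPM in the deletion libraries, against 7.8, 4.91 and 3.03 CPM in wild type on xylan. In CPM the A828V libraries without carbon were above the wild-type ones by a narrow gap and overlapped with the deletion group through deletion library 1. In FPKM they did not overlap with it (3.17 to 4.05 in A828V without carbon, 1.35 to 2.7 in the deletion strain). How many of all genes did the same in FPKM was not counted. On that scale the median log2 fold change of all genes between these groups was 0.16, beside -0.08 in edgeR. The mean was 3.64 ± 0.442 FPKM without carbon (SD, n = 3), 1.44 FPKM on sucrose, 1.88 ± 0.582 FPKM in the deletion strain (SD, n = 4) and 1.48 ± 0.551 FPKM in wild type on xylan (SD, n = 3).

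**Figure D1:**
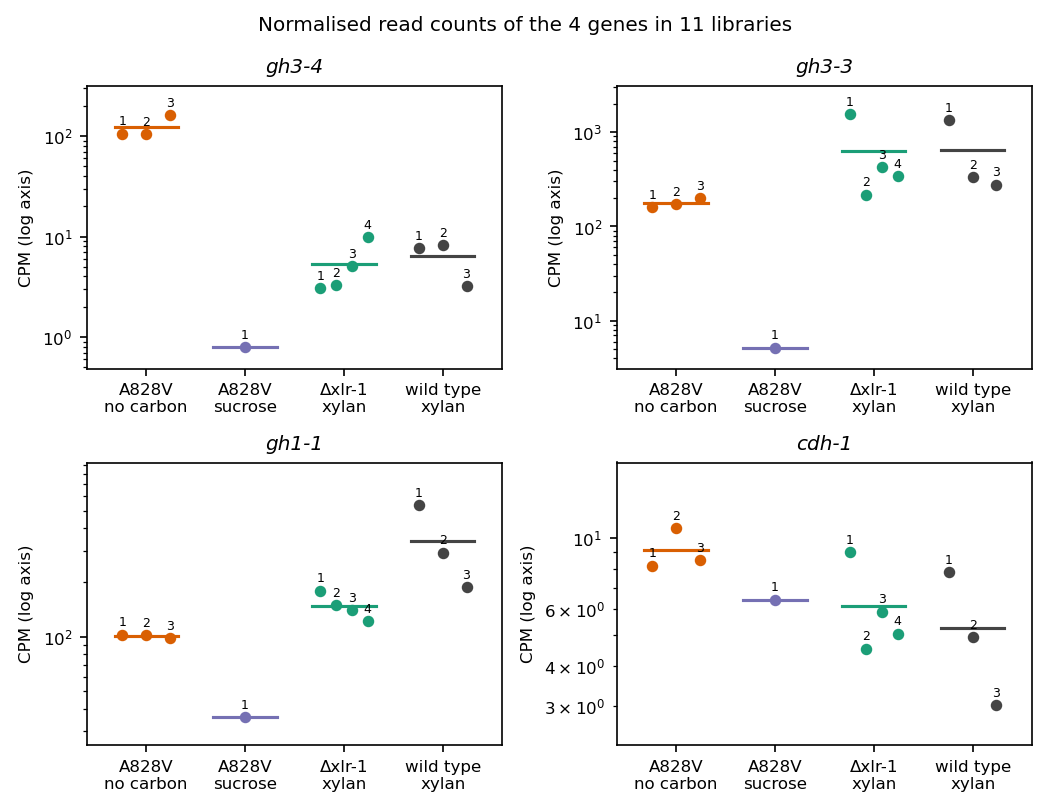
CPM on a log axis of each gene in the 11 libraries, by group, with the library numbers beside the points and the group mean as a line. The gh3-4 points without carbon (105 to 161 CPM) sit above every other library, and the gh3-3 points numbered 1 on xylan (1545 and 1345 CPM) stand apart from their groups.

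The first comparison asked how loss of xlr-1 bears on the 4 genes on xylan, with wild type beside the deletion strain. No member passed the edgeR test (0 of 4), where 0.596% of the 8557 genes did, 0.0234% as higher and 0.573% as lower. At an unadjusted p under 0.05 1 of the 4 was lower, gh1-1, which was also the 1 member that DESeq2 called, while limma called 0. The loss of xlr-1 and other differences between the strains, such as the matA-1 reads, cannot be told apart. gh1-1 came nearest, with a mean of 148 ± 24.1 CPM without xlr-1 (SD, n = 4) and 339 ± 179 CPM in wild type (SD, n = 3), 2.29-fold lower in the deletion strain. The edgeR fit gave gh1-1 a log2 fold change of -1.20 (SE 0.31, adjusted p = 0.131), and its groups did not overlap in CPM, as was the case for 9.71% of all genes tested. The log2 fold change of gh3-4 was -0.26 (SE 0.46, adjusted p = 0.841, edgeR), that of gh3-3 was -0.04 (SE 0.71, adjusted p = 0.985) and that of cdh-1 was 0.23 (SE 0.38, adjusted p = 0.825). The 95% interval of the difference on the log2 scale ran from -1.27 to 0.76 for gh3-4, from -1.61 to 1.53 for gh3-3 and from -0.61 to 1.07 for cdh-1.

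The call on gh1-1 depended on the test and on 1 library. It passed with DESeq2 (-1.20, adjusted p = 0.0182) and without wild-type library 3 (-1.53, adjusted p = 0.0418, edgeR), while without wild-type library 1 the fold was smaller (-0.70, adjusted p = 0.412, edgeR). The sign for gh3-3 followed the libraries numbered 1, at 1.06 without the wild-type one (adjusted p = 0.691, edgeR) and -0.99 without the deletion one (adjusted p = 0.392). A block on the replicate number gave 44 genes in place of 51. In fits of libraries 1 to 3 of these 2 groups alone, without deletion library 4, 98 genes passed with the block and 28 without it. None of the 4 members was called in these fits (gh1-1 at -0.98 in the blocked fit of libraries 1 to 3, adjusted p = 0.169, edgeR).

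The second comparison set the A828V strain without carbon against the same strain on sucrose, a preferred sugar that fungi use first. Of the 4 genes, 2 passed and both were higher without carbon, where 18.8% of all genes passed, 8.39% as higher and 10.4% as lower. gh3-4 averaged 124 ± 32.5 CPM without carbon (SD, n = 3) and 0.791 CPM on sucrose, a 157-fold difference, with a log2 fold change of 7.27 (SE 1.07, adjusted p = 0.00334, edgeR). gh3-3 averaged 177 ± 20.6 CPM (SD, n = 3) and 5.19 CPM on sucrose, a 34.0-fold difference, with a log2 fold change of 5.09 (SE 1.5, adjusted p = 0.0406, edgeR). gh1-1, at 101 ± 2.14 CPM (SD, n = 3) and 36 CPM on sucrose, had a log2 fold change of 1.48 (SE 0.52, adjusted p = 0.0745, edgeR). cdh-1, at 9.14 ± 1.38 CPM (SD, n = 3) and 6.42 CPM on sucrose, had one of 0.51 (SE 0.58, adjusted p = 0.567, edgeR). For each of the 4 genes the 3 libraries without carbon lay above the sucrose library, and the groups did not overlap for 88.6% of all genes either.

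The sucrose group is 1 library, assumed in the fit to vary like the other groups. The gh3-3 call was lost without A828V library 1 (5.16, adjusted p = 0.0781, edgeR), 2 (5.11, 0.072) or 3 (4.99, 0.0827) or deletion library 3 (5.09, 0.0549), with the fold nearly the same. gh1-1 passed in place of failing without wild-type library 1 (1.48, adjusted p = 0.0187, edgeR) or 3 (1.39, 0.0442).

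The other two comparisons set the A828V strain without carbon against the xylan groups, and in both of them strain and medium differ together and cannot be told apart. Against wild type on xylan, gh3-4 was higher and gh1-1 lower, 2 of 4 genes, where 20.8% of all genes passed, 9.29% as higher and 11.5% as lower. The mean of gh3-4 was 124 ± 32.5 CPM in the A828V strain and 6.37 ± 2.75 CPM in wild type on xylan (SD, n = 3 each), a 19.4-fold difference and a log2 fold change of 4.29 (SE 0.54, adjusted p = 0.00164, edgeR). That of gh1-1 was 101 ± 2.14 CPM in the A828V strain and 339 ± 179 CPM in wild type on xylan (SD, n = 3 each), 3.36-fold lower, with a log2 fold change of -1.75 (SE 0.35, adjusted p = 0.0092, edgeR). Without wild-type library 1 the gh1-1 fold was -1.25 (adjusted p = 0.0187, edgeR). gh3-3 was at -1.88 (SE 0.78, adjusted p = 0.109, edgeR) and cdh-1 at 0.81 (SE 0.40, adjusted p = 0.172). In CPM the libraries of the groups did not overlap for 4 of the 4 genes, where 54.3% of all genes showed the same. gh3-3 passed without deletion library 1 (-1.88, adjusted p = 0.0409, edgeR) and was nearer to 0 without wild-type library 1 (-0.78, adjusted p = 0.476).

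Against the deletion strain on xylan, only gh3-4 of the 4 genes passed in the edgeR fit, where 8.69% of all genes passed, 4.9% as higher and 3.8% as lower. It averaged 124 ± 32.5 CPM in the A828V strain without carbon (SD, n = 3) and 5.32 ± 3.17 CPM in the strain without xlr-1 (SD, n = 4), a 23.3-fold difference and a log2 fold change of 4.54 (SE 0.49, adjusted p = 0.000474, edgeR). gh3-3 was at -1.84 (SE 0.75, adjusted p = 0.143, edgeR), gh1-1 at -0.55 (SE 0.32, adjusted p = 0.276) and cdh-1 at 0.58 (SE 0.37, adjusted p = 0.33). In CPM the groups did not overlap for 3 of the 4 genes, all but cdh-1, and for 29.6% of all genes. gh3-3 was at -0.90 without deletion library 1 (adjusted p = 0.301, edgeR). The 3 comparisons of the A828V strain without carbon share its 3 libraries, so they do not stand for separate measurements of gh3-4.

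**Figure D2:**
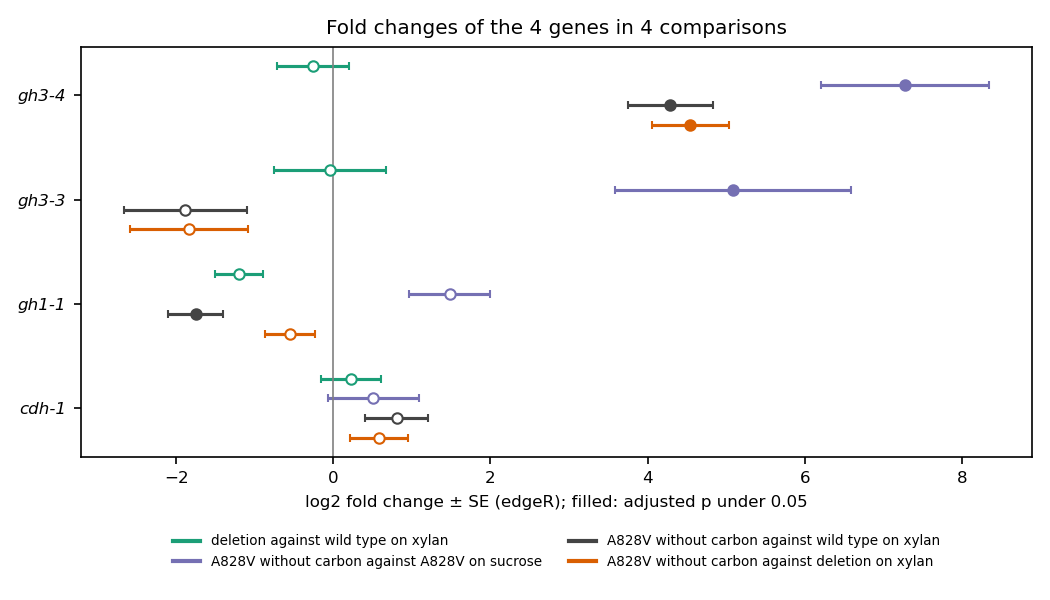
Log2 fold change with its SE (edgeR) of the 4 genes in the 4 comparisons, with filled points where the adjusted p is under 0.05. gh3-4 is filled in the 3 comparisons of A828V without carbon (7.27, 4.29 and 4.54), and every point of deletion against wild type is open.

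The wild type without carbon was read here from group means alone. The authors' deposited comparison tables also hold single-library columns for it. Those match no sample of this series and were not used, so its spread is not given. In the authors' deposited table of wild type on xylan against wild type without carbon, gh3-4 averaged 2.47 FPKM on xylan and 11.3 FPKM without carbon, a log2 fold change of -2.19 (adjusted p = 0.0159 in that table). The same authors' deposited table gives gh1-1 the opposite direction, at 172 FPKM on xylan and 26.3 FPKM without carbon (2.71, adjusted p = 0.00262 in that table). Thus 1 of the 4 genes was called higher on xylan in the authors' deposited table and 1 lower, beside 7.85% of the 8896 genes it tests, 5.91% as higher and 1.93% as lower. For gh3-3 the authors' deposited table has 205 FPKM on xylan and 51.5 FPKM without carbon (2.0, adjusted p = 0.0912 in that table). For cdh-1 it has 1.41 FPKM on xylan and 2.6 FPKM without carbon in the authors' deposited table (-0.88, adjusted p = 0.655 in that table).

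In the authors' deposited table of A828V against wild type, both without carbon, gh3-4 averaged 54.9 FPKM in the A828V strain and 13.0 FPKM in wild type, a log2 fold change of 2.08 (adjusted p = 1.71e-06 in that table). It was the only one of the 4 genes called in this authors' deposited table, beside 4.52% of the 8899 genes it tests, 2.94% as higher and 1.57% as lower. For gh1-1 this authors' deposited table has 60.5 FPKM in the A828V strain and 30.2 FPKM in wild type (1.0, adjusted p = 0.107 in that table). gh3-3 was at 64.4 FPKM in the A828V strain and 59.2 FPKM in wild type, and cdh-1 at 3.05 FPKM and 2.99 FPKM, in the same authors' deposited table (0.12 and 0.03). Both of these tables name the same wild type without carbon. Its means differ between them (11.3 and 13.0 FPKM for gh3-4 in the authors' deposited tables). Why those means differ was not tested.

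**Figure D3:**
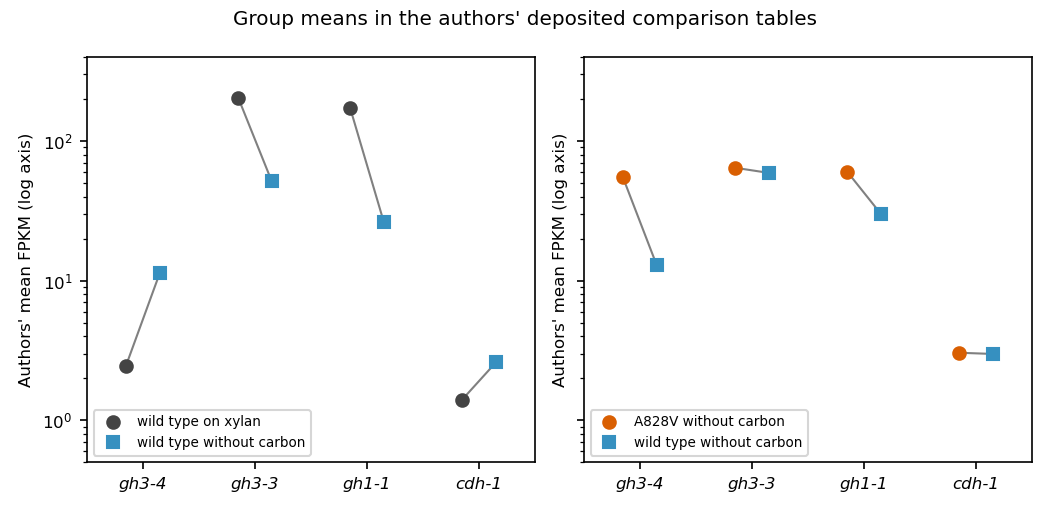
Group mean FPKM (log axis) of the 4 genes in the authors' deposited tables, with wild type on xylan (left panel) or A828V without carbon (right panel) beside wild type without carbon. On xylan gh3-4 is lower (2.47 against 11.3 FPKM) and gh1-1 higher (172 against 26.3 FPKM), and in A828V gh3-4 is higher (54.9 against 13.0 FPKM).

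The makeup of beta-glucosidase transcripts was set out over 7 genes, the 3 above with gh3-1, gh3-2, gh3-5 and gh3-6, as shares of their summed FPKM. In the A828V strain without carbon gh3-4 held 19.5 ± 3.29% (SD, n = 3) of a sum of 263 ± 26.4 FPKM, gh3-3 held 24.2 ± 0.225% and gh1-1 held 23.8 ± 3.02%. On sucrose the sum was 61.3 FPKM, and the larger shares were those of gh3-2 (34.3%), gh3-5 (28.7%) and gh1-1 (22.8%), while gh3-3 held 2.08% and gh3-4 held 0.37%. In the deletion strain gh3-3 held 52.8 ± 18.1% and gh1-1 held 27.4 ± 10.3% (SD, n = 4), against 42.3 ± 13.5% and 43.0 ± 6.35% in wild type on xylan (SD, n = 3). The share of gh3-4 was 0.782 ± 0.617% in the deletion strain (SD, n = 4) and 0.594 ± 0.271% in wild type on xylan (SD, n = 3). On xylan gh3-3 and gh1-1 together thus made up most of the sum in every library. The shares of gh1-1 overlapped between the strains, with 14.9% to 39.9% in the deletion libraries and 36.2% to 48.8% in wild type.

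**Figure D4:**
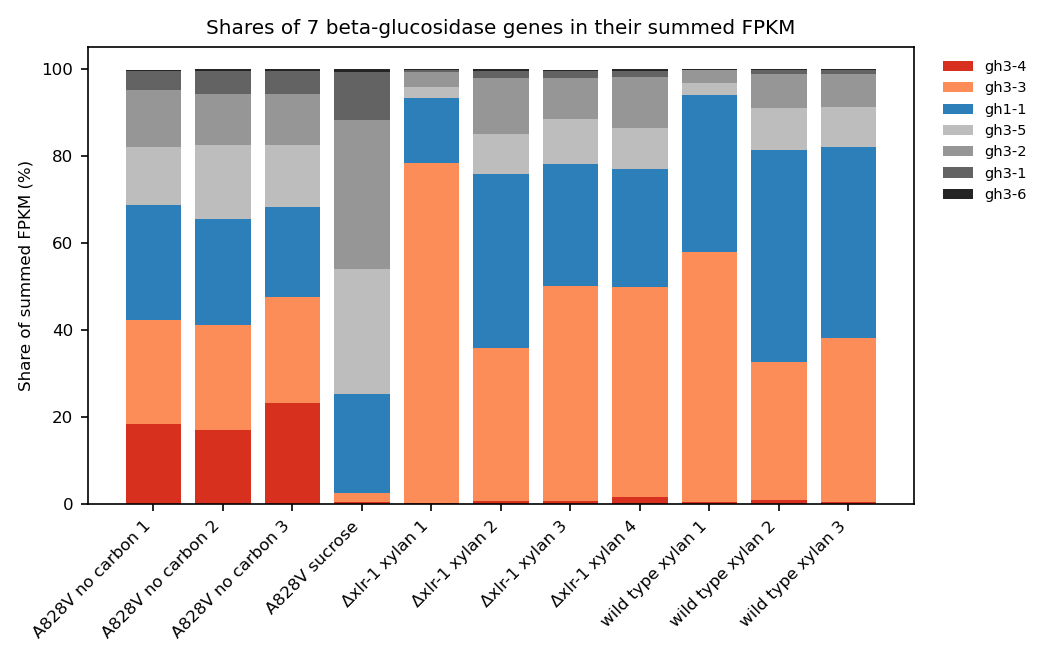
Share (%) of 7 beta-glucosidase genes in their summed FPKM, 1 bar a library. gh3-4 (bottom of each bar) holds 17% to 23.2% in the A828V libraries without carbon and at most 1.64% in every other library, and gh3-3 takes 78.2% in deletion library 1 and 57.6% in wild-type library 1.

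Of the 4 other beta-glucosidase genes, gh3-1 passed in 2 comparisons, in the direction of gh3-4. It stood at 32.7, 40.4 and 43.8 CPM in the A828V libraries without carbon, against 4.1, 10.3 and 7.77 CPM in wild type on xylan, a log2 fold change of 2.39 (SE 0.35, adjusted p = 0.00283, edgeR). Against the deletion strain, with 9.88 to 14.7 CPM, the difference was 1.78 on the log2 scale (SE 0.31 and, in edgeR, adjusted p = 0.00854). Over all genes tested 9.29% were higher than in wild type on xylan and 4.9% higher than in the deletion strain. In the authors' deposited table it was also called higher in A828V than in wild type without carbon, at 12.7 and 3.28 FPKM (1.95, adjusted p = 4.83e-05 in that table). None of the 4 passed between deletion and wild type on xylan or between A828V without carbon and on sucrose, in the edgeR fit (0 also at an unadjusted p under 0.05), DESeq2 or limma with the filter on low FPKM. Against sucrose 1 was called higher by limma without that filter and 1 in an edgeR fit of the 2 groups alone. Those settings called 1400 of 9758 and 2676 of 8455 genes higher. Against wild type on xylan limma on FPKM called 3 of the 4 higher with either pseudocount and 4 without the filter. Over all genes limma on log2(FPKM + 1) called 1527 of 8378 higher there and 522 lower, with a median of 0.30. Without the filter it called 1621 of 9758 higher. The medians over the 4 were 0.13, 0.58, 0.50 and 0.60 (log2 fold change) in the 4 comparisons as ordered above, beside medians of 0.05, 0.11, -0.01 and -0.08 over all genes. gh3-2, the most highly counted of them, was at 0.18 (adjusted p = 0.708, edgeR) between deletion and wild type and at 0.11 (adjusted p = 0.813) between A828V without carbon and on sucrose.

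The other cellobiose dehydrogenase gene, cdh-2 (NCU05923), stood at 5.67, 5.74 and 6.95 CPM in the A828V libraries without carbon, with 1 count in the sucrose library. The ratio was 68.9, with a counting interval of 12.3 to 2728, and the edgeR adjusted p was 0.0106. The fitted log2 fold change ran from 1.84 to 6.10 over the alternatives, with the call kept in 18 of 18. It was higher without carbon in A828V than in wild type on xylan, which had 2.0, 0.997 and 0.607 CPM (log2 fold change 2.37, SE 0.57, adjusted p = 0.0181, edgeR). That call was lost when 1 of 5 libraries was left out (wild type 2 or 3, or any A828V library without carbon), and the fold ranged from 1.39 to 2.93 over the alternatives. Between deletion and wild type on xylan cdh-2 was at 1.05 (SE 0.53, adjusted p = 0.404, edgeR), and between A828V and deletion at 1.31 (SE 0.49, adjusted p = 0.119), where DESeq2 and limma called it higher. In the authors' deposited table cdh-2 was lower in wild type on xylan than without carbon, at 0.479 and 3.27 FPKM (-2.77, adjusted p = 0.0101 in that table). It was not called in the authors' deposited table of A828V against wild type without carbon, at 2.7 FPKM in A828V and 3.77 FPKM in wild type (-0.48, adjusted p = 0.874 in that table).

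The cellulase genes make enzymes that release the cellobiose on which the 4 members act. Of 7 tested, 0 passed between deletion and wild type, between A828V without carbon and on sucrose, or between A828V and deletion, and 1 was lower in A828V than in wild type on xylan, beside the shares of all genes given above (0.596%, 18.8%, 8.69% and 20.8%). That one was the endoglucanase gene gh7-1 (-1.73, SE 0.48, adjusted p = 0.0316, edgeR), whose call was lost in 8 of 19 alternatives, among them without wild-type library 1 and limma on FPKM, which called 1 cellulase gene higher there and 0 lower. Of the 8 with an entry, the authors' deposited table of wild type called 2 higher on xylan than without carbon, gh5-1 at 12.8 and 1.52 FPKM (3.08, adjusted p = 0.00162 in that table) and gh6-3 at 86.9 and 10.5 FPKM (3.05, adjusted p = 0.0111 in that table). That table called 5.91% of the 8896 genes it tests higher. In wild-type libraries 1 to 3 on xylan gh5-1 stood at 30.9, 5.12 and 1.11 FPKM and gh6-3 at 225, 4.49 and 3.44 FPKM. Both xylan means thus rest mainly on library 1, and for gh6-3 libraries 2 and 3 lay below the 10.5 FPKM without carbon. gh6-3, the most highly counted of the list, was at -2.76 (SE 1.14, adjusted p = 0.308, edgeR) between deletion and wild type, where 1 wild-type library held 491 CPM. For those counts of 0, edgeR at an unadjusted p under 0.05 had 1 lower between deletion and wild type, 1 higher than on sucrose and 1 lower against deletion, DESeq2 called 0, 1 higher and 1 lower, and limma called 0, 2 higher and 0. The edgeR fit of the 2 groups alone called 4 higher than on sucrose, beside 2676 of all 8455 genes in that fit. Over all genes DESeq2 called 1200 of 8509 higher than on sucrose and 863 lower against deletion. limma on log2(FPKM + 1) called 1397 of 8378 higher than on sucrose. The list's medians were -0.30, 0.82, -0.34 and -0.04 in the 4 comparisons, beside the medians of all genes given above. On xylan each of the 8 cellulase genes with an entry was highest in the library numbered 1 in both strains, as gh3-3, gh1-1 and cdh-1 were, while gh3-4 was not. Over all genes tested 30.1% were highest in deletion library 1 and 40.8% in wild-type library 1, and the share highest in both was not counted. Of the 8, gh7-4 failed the count filter, with 6, 3, 0 and 0 counts in the deletion libraries and 7, 2 and 0 in wild type. It is included in the median ratios that follow. The cellulase genes stood at a median of 2.21 times the mean of the other deletion libraries and 2.92 times that of the other wild-type libraries, beside 0.983 and 0.997 over all genes. Without both libraries numbered 1, an alternative chosen after seeing the data, 2 of 7 cellulase genes were higher in A828V without carbon than on sucrose, and 2 higher and 0 lower than in wild type on xylan. Of all 8546 genes tested there, 1070 were higher than on sucrose, and 674 higher and 858 lower than in wild type.

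Of the 14 lytic polysaccharide monooxygenase genes, whose enzymes take electrons from cellobiose dehydrogenase, gh61-6 was higher in A828V without carbon than in each of the sucrose, deletion and wild-type xylan groups. It averaged 64.9 ± 9.54 CPM there (SD, n = 3), 13.4 CPM on sucrose, 16.0 ± 5.98 CPM without xlr-1 (SD, n = 4) and 9.12 ± 1.46 CPM in wild type on xylan (SD, n = 3). Its log2 fold change was 2.28 against sucrose (adjusted p = 0.0178, edgeR), 2.83 against wild type on xylan (0.00153) and 2.02 against the deletion strain (0.00429). With both strains lacking carbon it was not called in the authors' deposited table, at 49.1 FPKM in A828V and 27.9 FPKM in wild type (0.82, adjusted p = 0.268 in that table). In all, 1 of the 14 was higher and 2 lower without carbon than on sucrose, the fallers being NCU02344 (-3.45) and NCU07974 (-1.82). Against wild type on xylan 2 were higher, gh61-6 and gh61-10 (2.63), and 1 lower, gh61-2 (-1.35). Against the deletion strain 1 was higher and 0 lower, and between deletion and wild type 0 passed, NCU07974 being at 0.03 (adjusted p = 0.981, edgeR). There 1 was higher and 2 lower at an unadjusted p under 0.05, and DESeq2 and limma called 0. The medians were -0.45, 1.08, -0.20 and 0.28 in the order of the comparisons above. In that order 0.0234%, 8.39%, 9.29% and 4.9% of all genes tested passed as higher. As lower, 0.573%, 10.4%, 11.5% and 3.8% passed. The calls on NCU07974, gh61-2 and gh61-10 were each lost in 2 or more alternatives. DESeq2 called 2 higher and 3 lower against sucrose, 3 and 2 against wild type and 3 and 0 against deletion. Among all 8509 genes its counts were 1200 and 1153, 1235 and 1369, and 781 and 863 in that order. Without both libraries numbered 1 the counts became 3 higher and 1 lower than on sucrose and 2 higher and 0 lower than in wild type. Over all 8546 genes tested there, they were 1070 and 1241 against sucrose and 674 and 858 against wild type.

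Among the 4 genes of cellodextrin and cellobionate uptake and use, cdt-2, a transporter that supplies the substrate of GH1-1, was lower in the deletion strain than in wild type on xylan. It averaged 65.7 ± 40.4 CPM without xlr-1 (SD, n = 4) and 3733 ± 862 CPM in wild type (SD, n = 3), at -5.83 (SE 0.53, adjusted p = 0.000289, edgeR), beside the -1.20 of gh1-1. The other 3 did not pass there. Without carbon in A828V, 3 of the 4 were higher than on sucrose, namely cdt-2 (5.27, adjusted p = 0.0067, edgeR), the annotated sugar transporter gene NCU05853 (6.52, adjusted p = 0.019) and NCU09425, a cellobionic acid phosphorylase gene (3.22, adjusted p = 0.00402). Against the deletion strain 2 were higher, cdt-2 (6.40, adjusted p = 0.000159, edgeR) and NCU05853 (2.61, adjusted p = 0.0463), whose call was lost in 8 of 19 alternatives. Against wild type on xylan 0 of the 4 passed, and 0 did at an unadjusted p under 0.05 or with DESeq2 or limma, cdt-2 being at 0.57 (adjusted p = 0.429, edgeR). The medians were -0.46, 4.25, 0.48 and 1.46 in the order of the comparisons. Of all genes tested 0.573% were lower in the first of these, and 8.39%, 9.29% and 4.9% were higher in the rest.

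Of 6 regulator genes, xlr-1 itself was the one that passed between deletion and wild type. clr-1, an activator of cellulase genes, was higher in A828V without carbon than on sucrose, at 265 ± 12 CPM (SD, n = 3) and 59.9 CPM (2.15, SE 0.47, adjusted p = 0.0128, edgeR). cre-1, the carbon catabolite repressor, was lower, at 41.7 ± 8.4 CPM (SD, n = 3) and 337 CPM on sucrose (-3.01, SE 0.73, adjusted p = 0.0197, edgeR). cre-1 was also the 1 regulator that passed against wild type on xylan (-2.39, SE 0.60, adjusted p = 0.0213, edgeR). It no longer passed in 4 of 19 alternatives, which left out wild-type library 3 or any A828V library without carbon, and the cre-1 call against sucrose was lost in 3 of 18, 2 of them without A828V library 1 or 3. Against the deletion strain xlr-1 was higher (3.95, adjusted p = 0.000309, edgeR), as was clr-1 (1.01, adjusted p = 0.0449), whose call was lost in 11 of 19 alternatives. The medians of this list were -0.61, 0.32, -0.13 and 0.06. In the same 4 comparisons 0.596%, 18.8%, 20.8% and 8.69% of all genes tested passed in either direction.

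Of the 4 conidiation genes 0 passed between deletion and wild type on xylan, where eas was at 0.06 (adjusted p = 0.984, edgeR), while 2 were higher at an unadjusted p under 0.05 and DESeq2 and limma called 0. Without carbon in A828V 2 were higher than on sucrose, con-6 (9.01, adjusted p = 0.00406, edgeR) and con-10 (3.97, adjusted p = 0.0262). Against wild type on xylan con-6 (7.86), eas (4.31) and fl (2.19) were higher, 3 of 4, and the same 3 were higher against the deletion strain, at 6.22, 4.25 and 2.22. The eas call was lost in 5 of 19 alternatives against wild type and in 6 of 19 against deletion, among them DESeq2 and leaving out any A828V library without carbon. The con-10 call was lost in 2 of 18. Their medians were 0.66, 4.64, 3.25 and 3.24. As higher, 0.0234%, 8.39%, 9.29% and 4.9% of all genes tested passed in these comparisons. The authors' deposited table of wild type calls 3 of the 4 lower on xylan than without carbon, con-6 at 10 and 773 FPKM. It calls 1.93% of the 8896 genes it tests lower. In the authors' deposited table of A828V against wild type without carbon, where gh3-4 was higher, con-10 was lower (110 and 409 FPKM, -1.90) and the other 3 were not called. As lower, that table calls 1.57% of the 8899 genes it tests.

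**Figure D5:**
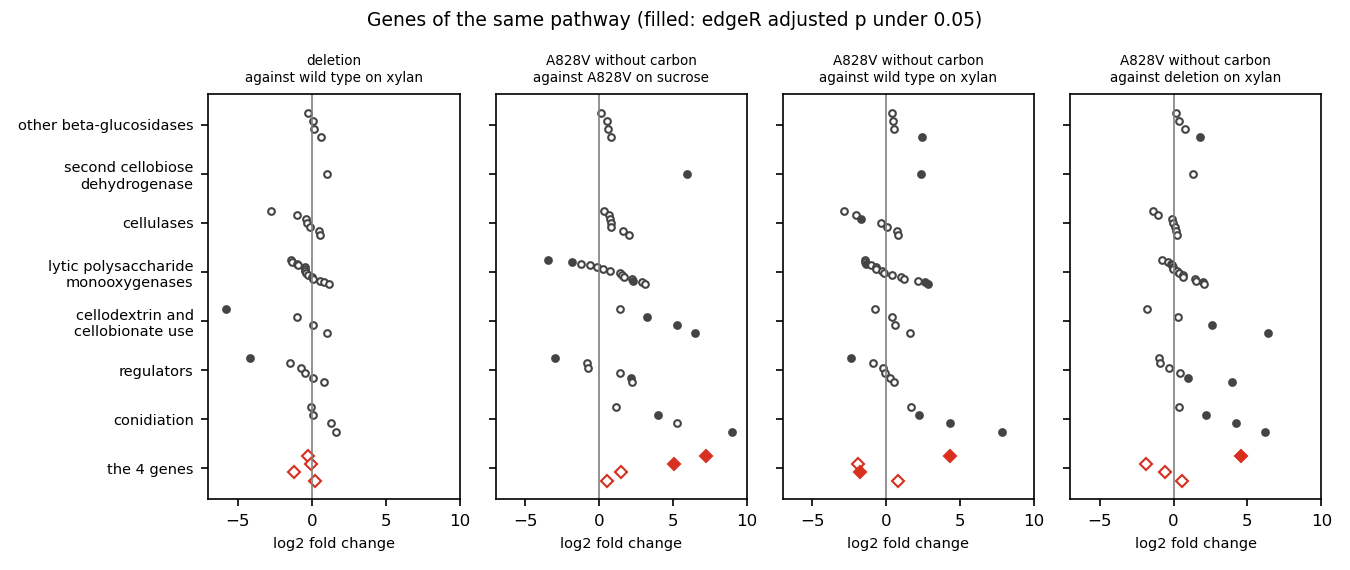
Log2 fold changes of the genes of 7 lists (circles) and of the 4 genes (diamonds) in the 4 comparisons, filled where the edgeR adjusted p is under 0.05. In the panels of A828V without carbon the filled diamond farthest to the right is gh3-4 (7.27, 4.29 and 4.54), while most cellulase circles are open.

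Across the 11 libraries the 4 genes did not share 1 pattern. On log2 CPM Pearson's r was 0.84 between gh3-3 and gh1-1 and 0.55 between gh3-4 and cdh-1, and it lay between -0.16 and 0.15 for the other 4 pairs. These values describe 11 points that fall into 4 groups and share library and normalisation. Among the 6615 other genes compared for each beta-glucosidase (6616 for cdh-1), with a mean of at least 10 CPM, those most like gh3-4 by the same measure were NCU02038 (0.962), NCU05381 (0.960), NCU02307 (0.959), NCU05229 (0.947) and NCU05156 (0.943), of which the authors' tables name no product beyond hypothetical protein. Those most like gh3-3 were NCU17105 (0.968), the oxidoreductase gene NCU01275 (0.963), the trehalase gene tre-1 (0.960), the alpha-glucosidase gene gla-2 (0.941) and NCU11417 (0.938). Those most like gh1-1 were the pectinesterase gene NCU10045 (0.921), NCU04910 (0.921), the arabinosidase gene NCU05965 (0.906), NCU04298 (0.906) and NCU03086 (0.895). Those most like cdh-1 were NCU04840, annotated as autophagy protein Atg13 (0.960), NCU08560 (0.928), the kinase gene mek-2 (0.911), NCU08072 (0.897) and the kinase gene stk-31 (0.896).

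The neighbours of the 4 genes on the chromosome mostly did not pass where the genes did. Next to gh3-4, NCU04951 (1130 bases away) was higher in A828V without carbon than on sucrose (2.49, adjusted p = 0.0216, edgeR), against 7.27 for gh3-4, and was not called against either xylan group. NCU04953, a penicillopepsin gene 1006 bases away on the other side, passed in no comparison, with log2 fold changes of 0.57 to 1.88. Of the other 6 neighbours, NCU00205 beside cdh-1 was lower in A828V without carbon than in wild type on xylan (-0.97, adjusted p = 0.0363, edgeR), and the other 5 passed in none of the 4 comparisons. The monooxygenase gene gh61-5 lies 10878 bases from gh3-3 with 3 genes between them.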

How the data were processed

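Per library, the authors deposited a table of raw counts of reads per gene, and a table of FPKM, scaled by them to length and depth. The authors' deposited comparison tables hold, per the file headers, group mean FPKM with a log2 fold change and its adjusted p-value. Their 12 columns of single libraries, wild type without carbon among them, match no sample of this series and were not used. Tools were TopHat2 2.04, HTSeq 0.6, Cufflinks 2.02 and Cuffdiff 2.02, per the submitters' processing notes. Not given in the sources used here were their settings, the build, any strand setting and how the authors adjusted p. Reads not assigned to a gene (6.34% to 29.57%) stayed out of library sizes. They include ambiguous, low-quality, unaligned and multiply aligned reads. The share was 29.57% in deletion library 2, and 6.34% and 6.48% in the deletion and wild-type libraries numbered 1.

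Counts were tested in R 4.3.3 with edgeR 4.0.16 (TMM, filterByExpr with a count minimum of 10, quasi-likelihood F-test, 2-sided) in 1 fit of all 11 libraries with 7 residual degrees of freedom. p-values were adjusted by Benjamini-Hochberg over the 8557 genes tested, and calls used an adjusted p under 0.05. The 4 genes all passed the count filter. SE is the fold change divided by the root of F, and the 95% intervals of differences use it with the t quantile at the fit's total degrees of freedom. The step across all genes was tested on simulated data, with some genes lowered in the deletion group. Against wild type on xylan it recovered 51% of 4-fold changes and 93.9% of 16-fold ones. A 4-fold change could thus go uncalled in that comparison. Alternatives were DESeq2 1.42.0, limma 3.58.1 on log2(FPKM + 1), other scaling and filters, a replicate block and leaving out each library.

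Genes and lists were chosen with earlier results of these data known. Of the lists' genes, 4 were dropped because their product name gave another function, which left 41, of which 40 were tested. Named list genes are up to 3 with the largest change among those called, or the most highly counted one. For likeness the 5 genes with the highest r were taken. Separate cultures are not stated in the labels. The p-values therefore measure the spread among these libraries alone, and it may be technical. No replicates agreed within sampling noise. Same-numbered deletion and wild-type libraries deviated together from their group means (r = 0.64, 0.264 and 0.252). Unlike numbers gave r from -0.563 to 0.247, the highest being deletion library 2 with wild-type library 3. Only number 1 thus stood apart, and whether the numbers pair the libraries is not settled. The main fit took no pairing, and a block on the numbers was run as an alternative. No label says what a shared number marks.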

Additional observations from a re-analysis of the deposited data

Results flagged for a closer look

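The CPM of gh3-3 in the 4 deletion libraries on xylan had 1 library far from the others. Library 1 stood at 1545 CPM, with the others at 217, 427 and 343 CPM, and the gap to its nearest neighbour was 0.841 of the group's whole range, above Dixon's 95% critical value for 4 samples. The 4 genes were tested in this 1 group, and by chance about 1 test in 20 passes this limit if values are normally distributed. The ratio was taken on CPM as such and not on its log, so this rate may not hold for skewed values. In wild type on xylan, a group of 3 that was not tested this way, library 1 stood at 1345 CPM with the others at 332 and 277 CPM.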

How the results depend on the processing

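Of 308 alternatives run on 16 log2 fold changes (4 genes in 4 comparisons), 272 kept both the direction and the side of the threshold, and 7 results did so under all of theirs. Among these gh3-4 was called in each A828V comparison, at 5.4 to 7.38 against sucrose, 3.90 to 4.65 against wild type and 4.25 to 5.0 against deletion. Unless a value shows it, the cause of a change was not tested.

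For deletion against wild type, gh3-3 turned positive in limma on FPKM (0.02 with either pseudocount or without a filter), with a replicate block (0.05), in libraries 1 to 3 of these 2 groups alone with the block (0.08) and without it (0.17) and without both libraries numbered 1 (0.11). Leaving out 1 library gave -0.99 to 1.06 for gh3-3, -0.78 to -0.07 for gh3-4, -1.53 to -0.70 for gh1-1 and -0.10 to 0.63 for cdh-1, which was negative without deletion library 1 (-0.02) or wild-type library 3 (-0.10). gh3-4 was 0.09 without both libraries numbered 1, and gh1-1 passed with DESeq2 (-1.20). Against sucrose, leaving out 1 library gave 4.99 to 5.16 for gh3-3 and 1.39 to 1.5 for gh1-1. gh1-1 passed with DESeq2 (1.46), limma (2.08, 2.15 with the smaller pseudocount), the 2 groups alone (1.46) and without both libraries numbered 1 (1.49). Against wild type, gh3-3 passed with DESeq2 and in the 2 groups alone (-1.88 in both), and ranged from -2.32 to -0.78 over libraries left out. cdh-1 passed with limma (0.92, 1.30 with the smaller pseudocount) and without both libraries numbered 1 (1.21). Against deletion, gh3-3 passed with DESeq2 (-1.82).

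Genes called higher and lower, deletion against wild type, were 2 and 49, with DESeq2 168 and 222, with limma 17 and 51, in the 2 groups alone 1 and 31, and in libraries 1 to 3 of the 2 groups 12 and 86 with the block and 1 and 27 without it. The block in the fit of all numbered libraries gave 6 and 38. Leaving out 1 library gave 33 to 70. Against sucrose they were 718 and 894, with limma 1397 and 428, in the 2 groups alone 2676 and 2590, and 722 to 2204 in all with 1 library left out. Against wild type they were 795 and 983, with limma 1527 and 522, in the 2 groups alone 1489 and 1524, and 540 to 2461 in all. Against deletion they were 419 and 325, with DESeq2 781 and 863, with limma 652 and 155, without both libraries numbered 1 684 and 696, and 186 to 1132 in all. On the FPKM scale the median of all genes stood at 0.11, 0.45, 0.30 and 0.16 in the 4 comparisons, beside 0.05, 0.11, -0.01 and -0.08 in edgeR. Relative to that shift the gh3-3 value of 0.02 is below the median.

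The replicate block changed no other call on the 4 genes (gh1-1 at -1.07 between deletion and wild type). A828V and xylan libraries share only a number (r of -0.103, -0.234 and -0.174 with wild type, -0.083, -0.107 and -0.03 with deletion), and the block gave 2310 calls in place of 1778 against wild type and 652 in place of 744 against deletion. The comparison against sucrose could not be blocked or paired, because the sucrose library carries no number.

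On sucrose gh3-4 rests on 9 counts and 1 library, and cdh-1 stays under 11 CPM throughout, which limits its precision.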
